A study of Mus musculus with 16 samples.

Results

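Sperm small RNA of Dnmt2-/- mice was compared between males on a high-fat diet (HFD) and males on a normal diet (ND). The comparison holds 4 of the 16 samples of the series, chosen by genotype, tissue and diet as labelled: 2 HFD and 2 ND libraries of mature sperm. All reads in the 4 libraries were used. The males of every group carried a C57BL/6NCrl background. The Dnmt2-/- animals were homozygous for the Dnmt2tm1Bes knockout allele, backcrossed to that background, so HFD and ND males alike lacked Dnmt2 (Trdmt1). Sperm came from the cauda epididymis of adults and were pelleted, and total RNA was made into small RNA libraries. The age at collection and the length of the diet were not given in the sources used here. Wild-type males were bought at 6 weeks of age, and the sample annotation lists that purchase age for all sperm samples, Dnmt2-/- included. The labels do not say whether a library is 1 male or a pool, so the p-values rest on library-to-library spread, and part of that may be technical. The other samples were 4 libraries of Dnmt2+/+ sperm on the same diets and 8 libraries of transfected 3T3 fibroblasts, which were not used. The knockout itself could not be checked, because small RNA reads measure neither the Dnmt2 mRNA nor cytosine methylation.

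Mature sperm carry little messenger RNA and a small RNA pool that is rich in fragments of tRNA and rRNA. Fragments that start at the first base of a tRNA and end near its anticodon, often called tsRNAs, build up as sperm pass through the epididymis, whose epithelium also releases vesicles with microRNAs. Dnmt2 methylates a cytosine in the anticodon loop of a few tRNAs, among them tRNA-Gly, tRNA-Asp and tRNA-Val, and that mark protects a tRNA from cleavage. MicroRNAs are short RNAs that silence messages through their seed, bases 2 to 8.

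The ND libraries held 13181541 and 13150403 reads (replicates 1 and 2, the order used for each pair below), and the HFD libraries held 10305631 and 13305449. Reads were 18 to 44 nt long, and abundances are reads per 1000000 reads of the library (CPM). The 62721 sequences found in all 4 libraries held 91.3% and 91.6% of ND reads and 91.6% and 87.4% of HFD reads. Before any diet difference is given, the libraries must be set apart by their read errors. At base 29, abundant sequences read T in place of G (G29T, counted from the first base of the read) in 449 and 392 of 10000 ND reads, the median over abundant sequences, but in 3.23 and 2.70 of 10000 HFD reads. At base 26 the change C26G had a rate of 1.09 and 0.0 per 10000 on ND, 9.51 in HFD replicate 1 and 0.0 in HFD replicate 2. Both ND libraries thus shared 1 error pattern, and each HFD library had a pattern of its own. The labels name no run or batch, and in Dnmt2-/- sperm this pattern and diet cannot be told apart. Dnmt2+/+ ND replicate 1 shared the pattern of the Dnmt2-/- ND libraries (418 per 10000 at base 29), Dnmt2+/+ ND replicate 2 that of HFD replicate 2, and both Dnmt2+/+ HFD libraries that of HFD replicate 1. A fit with this pattern as a term therefore corrects by the difference within the Dnmt2+/+ ND pair alone. HFD replicate 1 does not enter its diet contrast, which sets HFD replicate 2 against the ND libraries. Values from that fit are given as description. Across 3723 sequences, the log2 abundances of the ND pair had a Pearson correlation of 0.883 and those of the HFD pair 0.793, as a description. The HFD pair differed more than 2-fold at 42.2% of these sequences, and the ND pair at 28.4%.

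Most reads began at the first base of 3 RNAs, and commonest forms of 2 of them are shown because the diet comparison turns on them. The most abundant was the start of tRNA-Glu-CTC (the Glu start), which also had a form with 1 G fewer and a form with 3 bases fewer near the 5′ end. Reads were grouped by their first 15 bases, and the 4 most abundant of these start families held 69.0% and 68.8% of ND reads and 61.1% and 63.3% of HFD reads. The tRNA and rRNA names are those of the known 5′ ends, which were not looked up in a table here. The second was the start of tRNA-Gly, in which capitals mark the pair of G at bases 6 and 7, or what stands in its place.
Gly start (tRNA-Gly-GCC and tRNA-Gly-CCC): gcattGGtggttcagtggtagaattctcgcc
Gly start, G6T: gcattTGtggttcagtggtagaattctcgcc
Gly start, 1 G fewer: gcattGtggttcagtggtagaattctcgcc
The third RNA was 28S rRNA, the large ribosomal RNA. Its fragments shared a 5′ end and differed in where they stopped, and capitals mark the bases after the 20th.
28S rRNA, 20 nt: cgcgacctcagatcagacgt
28S rRNA, 34 nt: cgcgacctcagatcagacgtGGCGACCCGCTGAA
28S rRNA, 36 nt: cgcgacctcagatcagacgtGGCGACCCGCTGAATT
28S rRNA, 40 nt: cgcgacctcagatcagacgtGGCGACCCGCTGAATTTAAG
MicroRNA reads described below are shown with the seed in capitals. The let-7c-5p, let-7f-5p, let-7g-5p and miR-148a-3p reads equal the mature RefSeq entries (GRCm38.p6, with T for U), and the miR-10 reads are 1 base shorter. The 3 let-7 reads share a seed, as do miR-10a and miR-10b.
let-7c-5p: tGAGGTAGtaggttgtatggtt
let-7f-5p: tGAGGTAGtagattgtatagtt
let-7g-5p: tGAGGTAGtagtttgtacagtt
miR-10a-5p: tACCCTGTagatccgaatttgt
miR-10b-5p: tACCCTGTagaaccgaatttgt
miR-148a-3p: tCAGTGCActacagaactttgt

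The length profile was flatter on HFD. Reads of 30 to 34 nt, the size of tRNA fragments, made up 72.3% and 69.0% of ND reads and 61.1% and 58.4% of HFD reads. Both HFD libraries lay below both ND libraries, with means of 70.6% ± 2.38 (SD, n = 2) and 59.7% ± 1.96 (SD, n = 2). Reads of 18 to 24 nt, the size of microRNAs, made up 4.41% and 5.29% on ND and 11.9% and 10.1% on HFD. The groups did not overlap here either, and the means were 4.85% ± 0.621 and 11.01% ± 1.26 (SD, n = 2 each). Reads of 35 to 44 nt made up 11.2% and 10.6% on ND and 11.5% and 16.1% on HFD. HFD replicate 2 was high and HFD replicate 1 only just above ND replicate 1, and the difference of 2.92 points was 0.604 without HFD replicate 2. With each distinct sequence counted once, it was -0.87 points. Reads of 25 to 29 nt made up 12.1% and 15.2% on ND and 15.5% and 15.4% on HFD, a difference of 1.82 percentage points that was 0.276 without ND replicate 1 and 0.0136 without reads of the most abundant start. Every 95% Wilson interval of these shares was narrower than 0.1 percentage points and covered counting error only. With 2 libraries against 2, the exact two-sided permutation test gave p = 0.33 for each class, the smallest it can give.

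**Figure D1:**
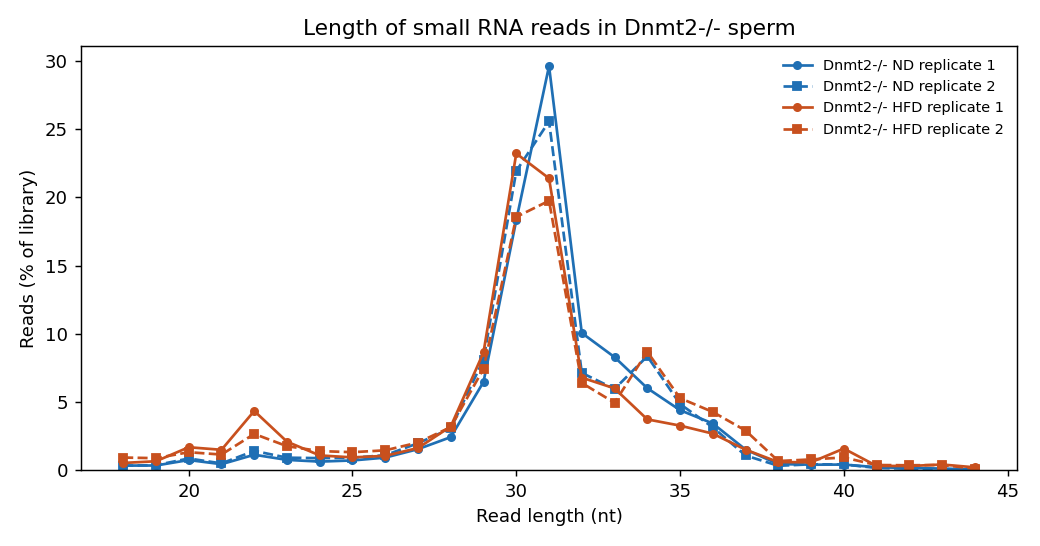
Share of reads (% of the library) at each read length (nt) in the 2 ND (blue) and 2 HFD (orange) libraries of Dnmt2-/- sperm, solid for replicate 1 and dashed for replicate 2. The ND libraries peak at 31 nt (29.6% and 25.6%), while HFD replicate 1 peaks at 30 nt (23.2%) and both HFD libraries have more reads at 22 nt.

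Single lengths showed where the shift lay. Both HFD libraries were above both ND libraries at 16 of 27 lengths, below both at 2 (31 and 32 nt), and overlapped them at 9. At 31 nt the ND libraries held 296222 and 255671 CPM and the HFD libraries 213971 and 197509 CPM. At 22 nt they held 11364 and 14182 CPM on ND and 43448 and 26618 CPM on HFD. The 22-nt reads of HFD replicate 1 were the most frequent of the 4, and all HFD values exceeded all ND values. At 40 nt the libraries held 4145 and 4260 CPM on ND and 15875 and 9359 CPM on HFD, again without overlap. HFD replicate 1 peaked at 30 nt and the other 3 libraries at 31 nt. At 34 nt the replicates differed more than the diets: replicate 1 was lower on both diets (60153 CPM on ND and 37285 CPM on HFD) and replicate 2 higher (83551 and 86875 CPM).

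**Figure D2:**
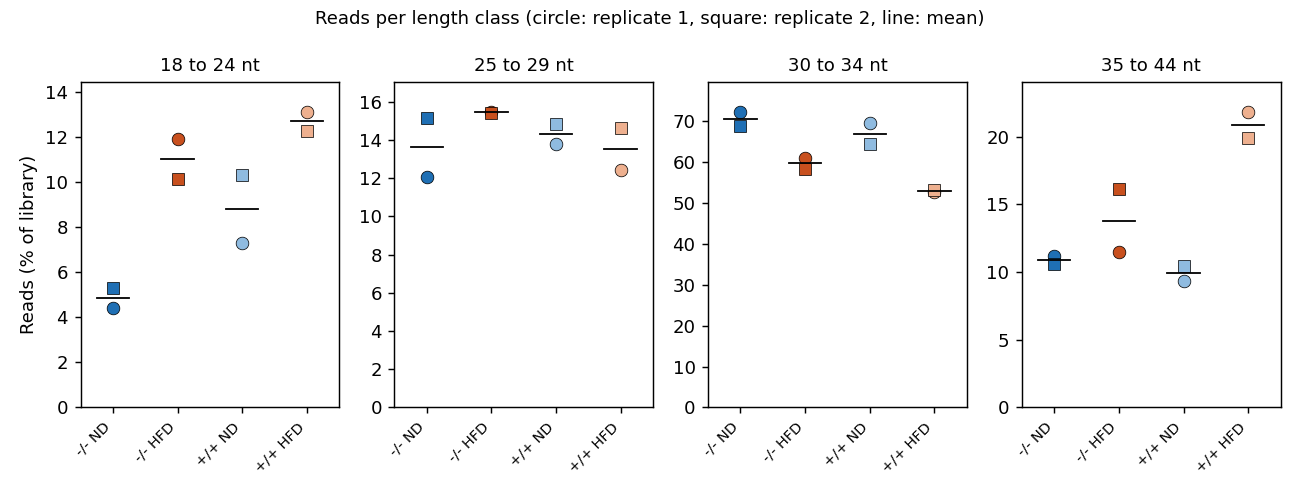
Share of reads (% of the library) per length class in Dnmt2-/- and Dnmt2+/+ sperm, 1 panel per class; circles are replicate 1, squares replicate 2, and the line is the mean of 2 libraries. In both genotypes the HFD libraries lie above the ND libraries at 18 to 24 nt and below them at 30 to 34 nt.

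Most of the difference at 30 to 34 nt came from tRNA-Glu-CTC and tRNA-Gly fragments. When the 40 most abundant families were joined by RNA, Glu-CTC starts of this size made up 38.2% and 39.8% of all ND reads and 33.3% and 28.4% of HFD reads. The difference was -8.19 percentage points, without overlap. Gly starts of this size made up 23.8% and 15.9% on ND and 16.8% and 15.0% on HFD. The Gly values overlapped, since ND replicate 2 was close to the HFD libraries. Starts of 28S rRNA in the same class went the other way, at 1.997% and 4.22% on ND and 2.55% and 6.89% on HFD, with the replicates further apart than the diets.

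The difference at 18 to 24 nt had several parts. Of its 6.16 percentage points, let-7 starts gave 2.41, miR-10 starts 0.362, short 28S starts 0.529, and starts outside the 40 most abundant families 2.80. let-7 starts of this size made up 0.268% and 0.219% of ND reads and 4.11% and 1.19% of HFD reads, so HFD replicate 1 held the largest part. The starts outside the 40 families made up 2.44% and 2.81% on ND and 4.74% and 6.12% on HFD, where HFD replicate 2 was the higher. At 35 to 44 nt, 28S starts made up 4.64% and 4.35% on ND and 6.00% and 9.19% on HFD, and Glu-CTC starts 3.35% and 3.75% on ND and 1.58% and 2.30% on HFD. Both of these differences were without overlap, and they had opposite directions.

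First-base use differed at the lengths of these RNAs. Among reads of 35 to 44 nt, T began 37.7% and 41.6% on ND and 21.4% and 20.5% on HFD, and C, the first base of the 28S fragments, began 48.2% and 47.3% on ND and 60.3% and 64.9% on HFD. Neither base overlapped between diets. Among reads of 18 to 24 nt, T, the first base of the let-7 and miR-10 reads, began 38.6% and 40.1% on ND and 61.6% and 41.8% on HFD. HFD replicate 1 was thus far above ND and HFD replicate 2 close to it. At 22 nt, T began 69.7% and 73.0% on ND, 86.2% in HFD replicate 1 and 70.1% in HFD replicate 2, which lay between the ND libraries. In the classes of 25 to 29 and 30 to 34 nt, T began 55.1% and 61.7%, and 56.6% and 63.7%, on ND, against 55.3% and 53.2%, and 57.9% and 54.1%, on HFD. Those values overlapped, as did G at 30 to 34 nt (37.4% and 26.8% on ND, 33.3% and 29.9% on HFD). At 43 nt G began 54.9% and 26.1% on ND and 66.0% and 67.1% on HFD, and the commonest read of the mitochondrial tRNA-His start, which begins with G, is 43 nt long. That start made up 0.0617% and 0.0335% of ND reads and 0.299% and 0.243% of HFD reads at 35 to 44 nt, without overlap.

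Each combination of length and first base was tested in 1 fit of the 8 sperm libraries with edgeR's quasi-likelihood test, scaled by the library total. At an adjusted p under 0.05 the test called 5 of 108 combinations higher on HFD (4.63%) and 0 lower (0.0%), and 25 had an unadjusted p under 0.05. The groups did not overlap at 64 combinations that were higher on HFD (59.3%) and 6 that were lower (5.56%). The strongest was T at 21 nt, with 1712 and 1800 CPM on ND and 10531 and 5293 CPM on HFD. Its log2 fold change was 2.17 ± 0.47 (SE), adjusted p = 0.0128 in edgeR. Reads of 40 nt that began with C, among them the 28S form shown above, had 2239 and 2632 CPM on ND and 13182 and 6318 CPM on HFD (log2 fold change 2.0 ± 0.54, adjusted p = 0.0308 in edgeR). T at 18, 20 and 23 nt was also called, with log2 fold changes of 1.70, 1.53 and 1.67. T at 22 nt had a log2 fold change of 1.62 and an adjusted p of 0.0751 in edgeR. The 6 lower combinations were G at 31 nt and T at 32 to 36 nt, the first bases and lengths of the Gly and Glu fragments. DESeq2 and a fit of the 4 Dnmt2-/- libraries alone also made all 5 calls, and a fit with a replicate block made none. None of the 5 calls was made under TMM scaling or with the read-error pattern as a term in the fit. Leaving out 1 of the 4 libraries left 0 or 1 call: with HFD replicate 2 left out it was T at 21 nt, and with ND replicate 1 left out it was none of the 5.

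Among the tRNA starts, the Glu start held 313660 and 339250 CPM on ND and 255613 and 226777 CPM on HFD. Both HFD libraries were below both ND libraries (log2 fold change -0.44 ± 0.34, adjusted p = 0.937 in edgeR). With the read-error pattern as a term in the fit, the log2 fold change was 0.65, the opposite direction. HFD replicate 1 does not enter that contrast. Its form with 1 G fewer had 121298 and 123696 CPM on ND and 127279 and 110369 CPM on HFD, with overlap. The Gly start held 183097 and 132662 CPM on ND and 133466 and 125263 CPM on HFD, a log2 fold change of -0.29 ± 0.33 with overlap. ND replicate 1 stood alone at the high end. The Glu form with 3 bases fewer was lower on HFD without overlap, at 8719 and 11776 CPM on ND and 3617 and 6124 CPM on HFD (log2 fold change -1.07 ± 0.48, adjusted p = 0.866 in edgeR), and it too changed sign with that term, to 0.41. The start of tRNA-Val, one of the Dnmt2 targets, had 6560 and 4106 CPM on ND, 11412 CPM in HFD replicate 1 and 3577 CPM in HFD replicate 2. These HFD values lay on both sides of the ND pair. Of smaller tRNA groups, tRNA-Cys-GCA starts (0.109% and 0.0938% of ND reads, 0.270% and 0.165% of HFD reads) and tRNA-Glu-TTC starts (0.426% and 0.322% on ND, 0.730% and 0.436% on HFD) were higher on HFD without overlap. tRNA-His-GTG starts overlapped, at 0.394% and 0.903% on ND and 0.800% and 0.406% on HFD, as did tRNA-Lys-CTT starts, at 0.159% and 0.0563% on ND and 0.267% and 0.0966% on HFD.

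**Figure D3:**
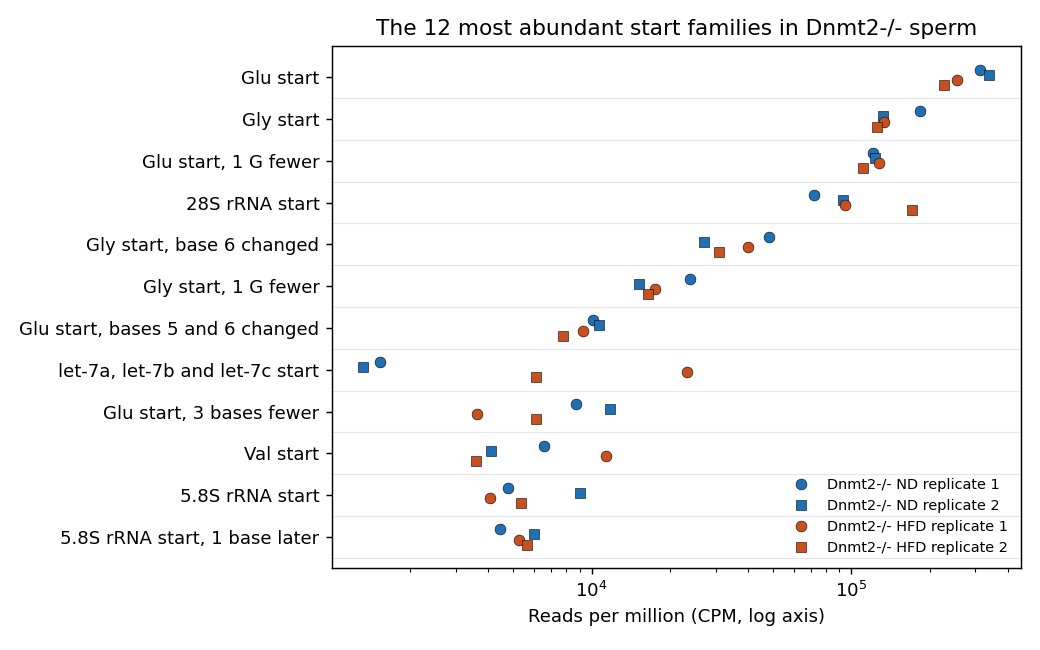
Abundance (CPM, log axis) of the 12 most abundant start families in each Dnmt2-/- library; circles are replicate 1, squares replicate 2, blue ND and orange HFD. The let-7 start shows the widest gap between the diets, while the Gly, Val and 5.8S rRNA starts overlap.

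Of the rRNA starts, that of 28S rRNA had 72020 and 92578 CPM on ND and 94626 and 170632 CPM on HFD. HFD replicate 1 was just above ND replicate 2, and HFD replicate 2 was highest (log2 fold change 0.69 ± 0.43, adjusted p = 0.894 in edgeR). With the read-error pattern as a term it was -0.35. The start of 5.8S rRNA, a small RNA of the large ribosomal subunit, had 4788 and 8993 CPM on ND and 4072 and 5371 CPM on HFD, with overlap. Its form that began 1 base later had 4449 and 6009 CPM on ND and 5274 and 5645 CPM on HFD, also with overlap.

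No start family passed the test across all families. In edgeR, 0 of 29781 families were called in either direction (0.0%), 1620 (5.44%) had an unadjusted p under 0.05, and the lowest adjusted p was 0.228. DESeq2 called 58, 36 of them higher on HFD. edgeR called 206 with HFD replicate 1 left out and 293 with HFD replicate 2 left out. Both HFD libraries were above both ND libraries in 26.2% of families and below in 5.96%. Among the 251 families of at least 100 CPM, 67 were above (26.7%), 51 below (20.3%) and 133 overlapped. Of the 12 most abundant families, 2 were above (28S and let-7), 3 below (all Glu starts) and 7 overlapped. The median log2 fold change over all families was 0.47 with library totals and 0.03 with TMM, so higher and lower are stated relative to all reads. The 5 families of at least 100 CPM with the lowest p among those higher on HFD were the starts of let-7f, of let-7a, let-7b and let-7c, of miR-1a (a muscle microRNA), of let-7d, and of let-7g and let-7i. Their log2 fold changes ran from 3.24 to 4.63. The 5 with the lowest p among those lower on HFD each differed from an abundant Glu or Gly start by 1 base: C2A in 3 families, and T4A and T13G in 1 each. The C2A form of the Glu start had 784 and 844 CPM on ND and 49.1 and 48.9 CPM on HFD. It moved with the read-error pattern: Dnmt2+/+ ND replicate 1 had 942 CPM, and Dnmt2+/+ ND replicate 2 had 36.05 CPM on the same diet. With that pattern as a term, 3 of these 5 families changed sign, the C2A form of the Glu start to 0.65.

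Single sequences were tested in the same way, and 0 of 50460 were called in edgeR (0.0% in each direction), with 7550 at an unadjusted p under 0.05 and a lowest adjusted p of 0.232. DESeq2 called 1023, and a fit of the 4 Dnmt2-/- libraries alone called 2496. The HFD pair was above the ND pair at 31.0% of sequences and below at 15.8%. Of the 20 sequences that were the 5 most abundant of each length class, 6 were above, 5 below and 9 overlapped. At 18 to 24 nt the most abundant was the 20-nt 28S fragment, with 4169 and 5412 CPM on ND and 7730 and 5429 CPM on HFD. HFD replicate 2 exceeded ND replicate 2 by less than 1%, so the non-overlap there is slight. The miR-148a read was second, with 3332 and 5459 CPM on ND and 3144 and 4090 CPM on HFD. The let-7f read followed, with 525 and 370 CPM on ND and 7204 and 2646 CPM on HFD, and then the let-7c read, with 468 and 467 CPM on ND and 6223 and 1878 CPM on HFD. The fifth, the first 18 bases of 28S rRNA, had 1258 and 1465 CPM on ND and 1225 and 3407 CPM on HFD. HFD replicate 2 alone was high.

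At 25 to 29 nt, 3 of the 5 sequences were Gly fragments of 28 or 29 nt, all higher on HFD without overlap. The 28-nt Gly fragment had 3321 and 2918 CPM on ND and 4359 and 5297 CPM on HFD. The 29-nt one had 4521 and 4743 CPM on ND and 5097 and 5587 CPM on HFD, and the 29-nt form with 1 G fewer had 2715 and 2727 CPM on ND and 4664 and 3890 CPM on HFD. At 30 to 34 nt the Gly fragment of 31 nt had 88414 and 63159 CPM on ND and 28250 and 54396 CPM on HFD (log2 fold change -0.88 ± 0.59, adjusted p = 0.525 in edgeR). The value in HFD replicate 1 was the lowest of the 4.

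At 35 to 44 nt, 3 of the 5 sequences were ends of the 28S fragment. The 28S fragments of 35, 36 and 37 nt overlapped between diets; that of 36 nt had 13863 and 10622 CPM on ND and 13821 and 24924 CPM on HFD. HFD replicate 2 was the highest library at each of these 3 lengths. The 40-nt 28S fragment, outside the 5 and named after its values were seen, had 1255 and 1501 CPM on ND and 9715 and 4243 CPM on HFD.

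Within the same starts, the shares of the read ends thus differed between the HFD and ND libraries. Within the Gly start, 31-nt reads made up 66.0% and 60.6% on ND and 36.04% and 51.4% on HFD, and 30-nt reads 13.7% and 20.3% on ND and 42% and 27.3% on HFD. The pair is shown with the last base of the longer form in capitals.
Gly start, 30 nt: gcattggtggttcagtggtagaattctcgc
Gly start, 31 nt: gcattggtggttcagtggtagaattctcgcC
HFD replicate 1 had more reads of the shorter form than of the longer, unlike the other 3 libraries. Within the Glu start, reads of 34 to 36 nt made up 19.1% and 18.5% on ND and 9.25% and 15.5% on HFD. The mean read length of the Glu start was 31.8 and 31.6 nt on ND and 31.2 and 31.5 nt on HFD. For the Gly start it was 30.8 and 30.7 nt on ND and 30.4 and 30.5 nt on HFD. Of the 12 most abundant families, 7 were shorter on HFD without overlap, 0 were longer and 5 overlapped; 6 of the 7 were variants of the Glu and Gly starts and the seventh was the let-7 start. Over the 251 families of at least 100 CPM, 49.0% were shorter and 9.96% longer without overlap, so shorter reads on HFD were common across families. These families are not all separate RNAs: of the 40 most abundant, 11 were Glu-CTC starts and 5 Gly starts. Within the 28S start, 40-nt reads made up 2.05% and 1.86% on ND and 11.8% and 2.71% on HFD, while 34-nt reads made up 12.2% and 36.3% on ND and 8.71% and 30.2% on HFD. In these 4 libraries the 34-nt share was low in both replicates 1 and high in both replicates 2, and did not separate the diets. It did not follow the replicate number in Dnmt2+/+ sperm, at 23.5% and 7.51% on ND and 7.75% and 8.08% on HFD. With the read-error pattern as a term, the difference in the 31-nt share of Gly reads changed sign, and so did that in the mean length of Glu reads. In Dnmt2+/+ sperm the 31-nt share of Gly reads was 65.9% and 44.6% on ND and 41.9% and 31.7% on HFD. The Dnmt2+/+ ND library with the error pattern of the Dnmt2-/- ND libraries was the one at 65.9%.

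**Figure D4:**
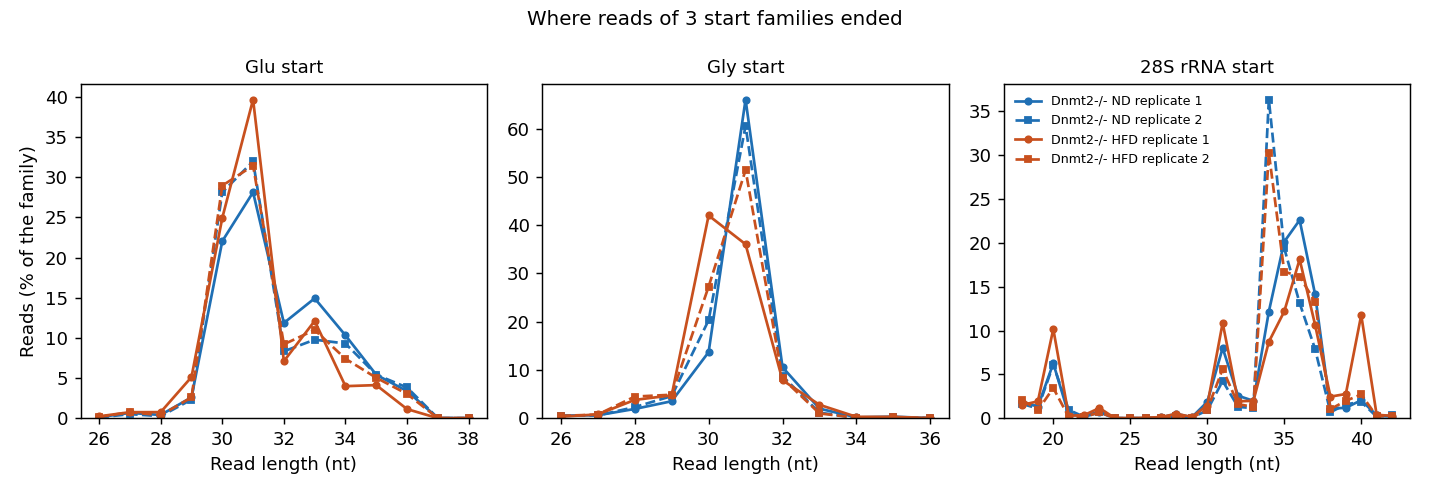
Read length (nt) within the Glu, Gly and 28S rRNA start families, as a share of each family's reads (%), for 2 ND (blue) and 2 HFD (orange) libraries; replicate 1 is solid and replicate 2 dashed. Gly reads end at 31 nt less often on HFD, and the 28S panel shows a 34-nt peak in both replicates 2 and a 40-nt peak of 11.8% in HFD replicate 1.

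Variants near the 5′ end were measured as a share of the start and its variant. Reads of the Glu start with 1 G left out made up 27.9% and 26.7% on ND and 33.2% and 32.7% on HFD, without overlap; with the read-error pattern as a term, the difference was -2.33 points. In Dnmt2+/+ sperm that share was 27.1% and 34.9% on ND and 29.5% and 29.1% on HFD, with overlap, and the Dnmt2+/+ ND library with the error pattern of the Dnmt2-/- ND libraries was the one at 27.1%. The same change in the Gly start made up 11.6% and 10.3% on ND and 11.6% in both HFD libraries. The G6T form of the Gly start made up 20.8% and 17.02% on ND and 23.03% and 19.8% on HFD, with overlap. The G6A form of the Glu start was rarer, at 0.971% and 0.982% on ND and 0.675% and 0.681% on HFD.

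MicroRNAs were a larger part of the reads on HFD. Reads of up to 26 nt that began with the first 18 bases of a mature arm made up 1.11% and 1.36% of ND reads and 6.13% and 2.70% of HFD reads. Without the let-7 family they made up 0.834% and 1.14% on ND and 1.97% and 1.504% on HFD. Both HFD libraries were higher in both counts, and HFD replicate 1 was highest: the difference in the first share was 3.18 percentage points, and 1.47 without that library. In bulk sperm, fewer cells of a type and less RNA per cell cannot be told apart. Of 564 arms or groups of arms with a read, 193 were tested, and 1 was called higher on HFD by edgeR (0.518%) and 0 lower (0.0%). Of the 193, 56 had an unadjusted p under 0.05. The HFD pair was above the ND pair in 79.3% of the 193 and below in 0.518%; 182 had a positive fold change and 11 a negative one. The median log2 fold change was 2.01 with library totals and 0.13 with TMM. With the read-error pattern as a term it was -0.62, in a contrast that HFD replicate 1 does not enter.

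The called microRNA was let-7f-5p, with 902 and 680 CPM on ND and 14146 and 4912 CPM on HFD. Its log2 fold change was 3.59 ± 0.56 (adjusted p = 0.0277 in edgeR). With TMM scaling the log2 fold change was 1.62 and let-7f-5p was not called. DESeq2 did not call it either. The call was also lost without ND replicate 1 (adjusted p = 0.316 in edgeR), without ND replicate 2 (adjusted p = 0.497 in edgeR) and with the read-error pattern as a term (adjusted p = 0.0789 in edgeR). The let-7 microRNAs are known as regulators of developmental timing and growth. All 8 measured members of the family were higher on HFD without overlap, beside 79.3% of all 193 tested. The median log2 fold change was 3.44 in the family and 2.01 over all 193. Their sum was 2717 and 2219 CPM on ND and 41574 and 11986 CPM on HFD, so the HFD libraries differed from each other by more than 3-fold. let-7a-5p and let-7c-5p, which share their first 18 bases, had 1242 and 1057 CPM on ND and 19082 and 5054 CPM on HFD. miR-98-5p, the least abundant member, had 3.64 and 2.05 CPM on ND and 138 and 17.96 CPM on HFD. Apart from let-7f-5p, the members had an adjusted p of 0.0708 in edgeR.

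**Figure D5:**
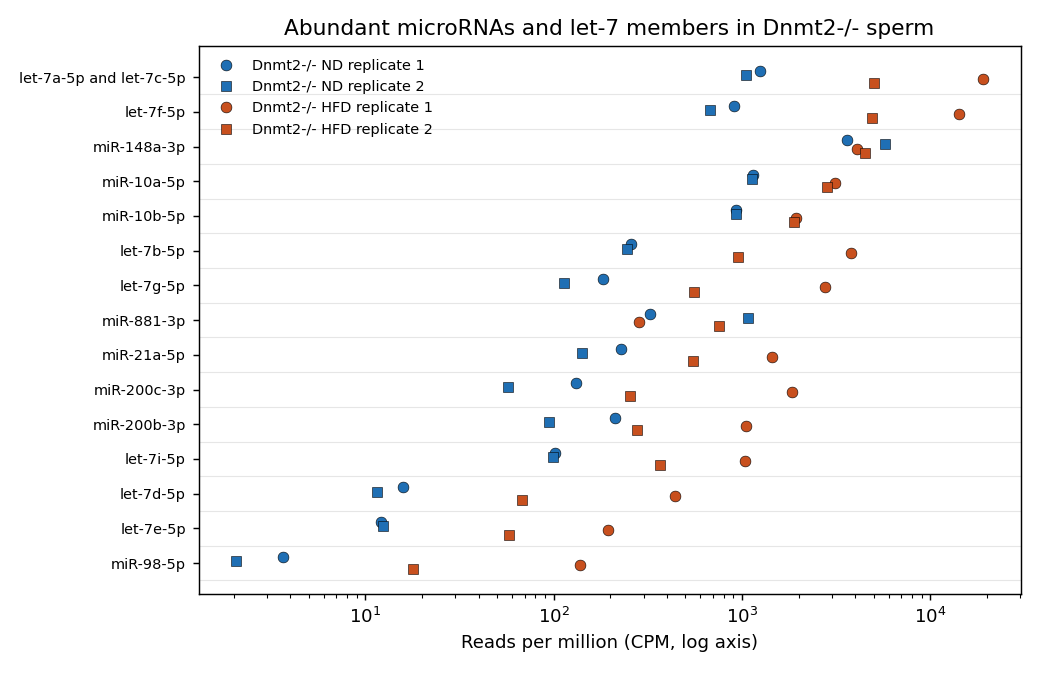
Abundance (CPM, log axis) of the most abundant microRNAs and of all measured let-7 members in each Dnmt2-/- library; circles are replicate 1, squares replicate 2, blue ND and orange HFD. Every let-7 member is higher in both HFD libraries, and miR-148a-3p and miR-881-3p overlap between the diets.

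Of the other microRNAs among the 10 most abundant, miR-200c-3p had a log2 fold change of 3.47 ± 1.18 (adjusted p = 0.152 in edgeR). That lay within the range of the let-7 members, 2.80 to 4.77. The rest differed less. miR-148a-3p overlapped, with 3631 and 5742 CPM on ND and 4066 and 4481 CPM on HFD (log2 fold change -0.13 ± 0.60). miR-10a-5p, encoded in a Hox cluster, had 1139 and 1123 CPM on ND and 3113 and 2825 CPM on HFD, and its replicates lay close together on both diets. Its log2 fold change was 1.39 ± 0.38, adjusted p = 0.103 in edgeR. miR-10b-5p had 928 and 931 CPM on ND and 1938 and 1881 CPM on HFD, also without overlap (log2 fold change 1.04 ± 0.38). With TMM scaling both changed sign, to -0.38 for miR-10a-5p and -0.72 for miR-10b-5p. miR-21a-5p, found in many somatic cells, had 228 and 141 CPM on ND and 1451 and 549 CPM on HFD. Of the 22 arms or groups of at least 100 CPM, 18 were above and 0 below, and 12 of the 16 outside let-7 were above. These shares are close to the 79.3% over all 193 tested.

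Markers of other cells were read from lists of microRNAs. The 8 measured members of 9 in the germ cell list summed to 357 and 1145 CPM on ND and 406 and 870 CPM on HFD; miR-34c-5p was not used here. Replicates 2 were higher on both diets in Dnmt2-/- sperm. In Dnmt2+/+ sperm replicates 1 were higher, at 1594 and 745 CPM on ND and 809 and 538 CPM on HFD. miR-881-3p, an X-linked testis microRNA, was most of that sum, at 323 and 1071 CPM on ND and 285 and 752 CPM on HFD. Member by member, 5 of the 8 were higher on HFD without overlap, 0 were lower and 3 overlapped. Over all 193 tested microRNAs, 79.3% were higher without overlap. The epithelial list, the miR-200 family, summed to 419 and 193 CPM on ND and 3090 and 616 CPM on HFD. Of its 5 members, 4 were higher without overlap, close to the 79.3% over all 193 tested microRNAs. miR-200c-3p had 132 and 56.9 CPM on ND and 1839 and 254 CPM on HFD, so HFD replicate 1 stood far above the rest. miR-206-3p, a marker of skeletal muscle and the 1 measured member of 3 in the striated muscle list, had 1 and 2 reads on ND, 902 reads (87.5 CPM) in HFD replicate 1 and 9 reads (0.676 CPM) in HFD replicate 2. It was at 73.3 and 74.6 CPM in Dnmt2+/+ HFD sperm, whose error pattern was that of HFD replicate 1. The start family named above as miR-1a, from its first 15 bases, was higher in both HFD libraries, with 15.4 and 8.90 CPM on ND and 451 and 149.8 CPM on HFD. The 4 measured members of 7 in the blood list summed to 0.455 and 1.06 CPM on ND and 3.11 and 4.36 CPM on HFD, and miR-142a-3p was at 0 in both ND libraries. miR-126a-3p, of endothelium, had 2.81 and 1.60 CPM on ND and 19.99 and 7.82 CPM on HFD. The smooth muscle list (miR-143-3p, miR-145a-5p) and the liver list (miR-122-5p) were not used here. The part of other cells in the diet difference was not tested.

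Set beside Dnmt2+/+ sperm, the class of 18 to 24 nt differed between diets (HFD minus ND) by 6.16 percentage points in Dnmt2-/- and by 3.89 in Dnmt2+/+ libraries, and that of 30 to 34 nt by -10.9 and by -14.1 points. The class of 35 to 44 nt differed by 2.92 points in Dnmt2-/- and by 10.96 points in Dnmt2+/+ sperm. These differences between genotypes were not tested for the classes. The interaction of diet and genotype was tested in the same edgeR fits: 0 of 108 combinations of length and first base were called (lowest adjusted p 0.371, 6 at an unadjusted p under 0.05), and 0 of 29781 families (0.0%; lowest adjusted p 0.675, 1953 at an unadjusted p under 0.05). With HFD replicate 1 left out, 1236 families had a called interaction, and with HFD replicate 2 left out, 2. C at 40 nt had the lowest p of the combinations quoted here, with an interaction of -2.32 ± 0.74 on the log2 scale (adjusted p = 0.371 in edgeR): it had 967 and 2037 CPM on ND and 37531 and 22452 CPM on HFD in Dnmt2+/+ sperm. let-7f-5p had 1088 and 1231 CPM on ND and 18702 and 14890 CPM on HFD there, and its interaction was -0.27 ± 0.72.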

How the data were processed

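The deposited sperm values are counts: the authors' files list each distinct read sequence with its length and number of reads, with no header. The kit was TruSeq small RNA, per the labels' protocols; adapter trimming and filters are not given in the sources used here. No genome was used. CPM is the count per 1000000 reads of the file. Reads were summed by length, length and first base, first 15 bases, sequence, and microRNA (RefSeq mature arms, GRCm38.p6, 1738 entries; first 18 bases, at most 26 nt; arms that share them were joined). Reads of near-identical starts cannot be assigned to 1 gene copy.

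Samples were grouped by their labels. Counts of the 4 sperm groups were fitted together with edgeR 4.0.16 in R 4.3.3 (filterByExpr, library size the file total without TMM, Benjamini-Hochberg adjusted p under 0.05), with DESeq2 1.42.0, TMM, other filters, fewer libraries and a term for the read-error pattern as alternatives. Log2 fold changes are HFD over ND with their SE. On simulated counts of 29781 families for this comparison, the test recovered 46 of 100 families changed 4-fold and 100 of 100 changed 16-fold, with 6 false calls. The simulation gave all families the same fixed spread and no read-error pattern, so this recovery does not carry over to the real libraries. There the miR-1a start, with a log2 fold change of 4.63, was not called (adjusted p = 0.655 in edgeR). Class shares were compared with exact permutation tests, and their Wilson intervals were computed in scipy 1.17.1. Figures were drawn with matplotlib 3.10.9.

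Named were the 5 most abundant sequences per length class, the 12 most abundant families, the 5 families of lowest p in each direction among those of at least 100 CPM, the 10 most abundant microRNAs, members of marker lists, and microRNAs past the threshold. Names of tRNA and rRNA starts are background knowledge. The comparison, its members and lists were chosen with earlier results of these data known. Replicates differed by more than counting noise (chi-square of 180 per family on ND and 263 on HFD), so each library was counted. A count of 0 allows up to 3 reads, or 0.225 to 0.291 CPM. Because reads carry no molecular identifiers and PCR copies were not removed, such limits and intervals reflect counting error alone. The 3T3 libraries were left out, and some of the sequences named by the rule are not reported here.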

Additional observations from a re-analysis of the deposited data

Results flagged for a closer look

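At 4 measures the diets went opposite ways in the 2 genotypes, with no overlap in either: 3 of the 108 combinations of length and first base, and 1 of 6 start variants. Reads of 18 nt that begin with A had 509 and 451 CPM on ND and 509 and 1558 CPM on HFD in Dnmt2-/- sperm (log2 ratio of means 1.11), and a log2 ratio of -1.05 in Dnmt2+/+ sperm. Here Dnmt2-/- HFD replicate 1 and ND replicate 1 were at the same value after rounding, so only HFD replicate 2 stood above ND by more than rounding. For reads of 18 nt that begin with C the log2 ratios were 0.91 and -0.59, and for reads of 19 nt that begin with A they were 1.15 and -0.61. The interaction of diet and genotype had an adjusted p of 0.581 in edgeR for all 3. The G6A form of the Gly start made up 0.774% and 0.735% on ND and 0.560% and 0.580% on HFD in Dnmt2-/- sperm (log2 ratio -0.40), against 0.646% and 0.522% on ND and 0.695% and 0.689% on HFD in Dnmt2+/+ sperm. This last difference between genotypes was not tested.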

How the results depend on the processing

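Replicate numbers did not pair the libraries (correlation of deviations 0.0724 over 1005 families); with a replicate block, 0 combinations of length and first base, 2 families and 2 microRNAs were called higher. Leaving out 1 library, calls higher on HFD ran from 0 to 1 combinations, 0 to 192 families, 0 to 367 sequences and 0 to 9 microRNAs, and calls lower from 0 to 154 families and 0 to 71 sequences; interactions ran from 0 to 1236 families, with 67 without Dnmt2+/+ HFD replicate 1 and 11 without replicate 2. TMM called 0 combinations and 0 microRNAs. DESeq2 called 7 combinations higher, the 5 of the main fit among them, and 1 lower. It called 36 families higher and 22 lower, and 385 sequences higher and 638 lower. It also called 2 microRNAs higher and 1 lower, but not let-7f-5p. The 4 Dnmt2-/- libraries alone gave 24 combinations, 596 sequences and 31 microRNAs higher and 1900 sequences lower. With no filter beyond 10 reads, 120 families were higher and 36 lower, 840 sequences higher and 1244 lower, and 9 microRNAs higher.

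With the read-error pattern as a term, 1 combination was higher and 9 lower, 0 microRNAs were called, and the class differences were 2.27 points at 18 to 24 nt and -7.12 at 30 to 34 nt. In that fit log2 fold changes changed sign for the Glu start (0.65), its forms with 1 G fewer (0.50), with bases 5 and 6 changed (0.65) and with 3 bases fewer (0.41), 28S (-0.35), Val (-2.04) and the late 5.8S start (-0.29), and for the C2A forms of the Glu start (0.65) and of its form with 1 G fewer (0.46) and the T13G form (0.91). So did, in an alternative chosen after seeing the data, the missing-G share of Glu starts (-2.33 points), the mean Glu length (0.0983 nt) and the 31-nt Gly share (9.36 points). Among microRNAs, miR-21a-5p (-1.52) and miR-200c-3p (-1.69) changed sign, and the median over all tested was -0.62. The let-7 members stayed positive, from 0.18 (let-7g-5p) to 3.04 (let-7b-5p), as did miR-10a-5p (1.22) and miR-10b-5p (0.90). In these fits the correction rests on the pair of Dnmt2+/+ ND libraries, and HFD replicate 1 does not enter the contrast. The changes of sign thus rest on single libraries. The cause was not tested. The late 5.8S start also changed sign under TMM and DESeq2 (-0.36 in both) and without ND replicate 1 (-0.14). Leaving out 1 library, log2 fold changes ran from -0.58 (without HFD replicate 1) to 1.098 for Val, from -0.15 to 0.055 (without HFD replicate 2) for the Glu form with 1 G fewer, from -0.44 to 0.38 (without ND replicate 1; 0.08 without HFD replicate 2) for the Gly G6T form, from -0.50 to 0.16 (without ND replicate 1) for the Gly form with 1 G fewer, and from -0.14 to 0.30 for the late 5.8S start.

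With each sequence counted once, the difference was -5.58 points at 30 to 34 nt and -0.87 at 35 to 44 nt. Without the Glu start it was 7.32 at 18 to 24 nt and 0.0136 at 25 to 29 nt. With 2 libraries a group and at least 10305631 reads in each, the spread between libraries, not counting error, limits these comparisons.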

Other observations

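Reads that lacked the first base of an RNA were measured beside their full start, a comparison chosen after the values were seen. Reads of the Glu start that began 1 base late had 2265 and 2035 CPM on ND, 10657 CPM in HFD replicate 1 and 1083 CPM in HFD replicate 2. They made up 4.00% of the joined starts in HFD replicate 1 and 0.475% to 0.717% in the other 3 Dnmt2-/- libraries. tRNA-His-GTG, whose mature form carries an added G at its first base, had late starts at 30.3% and 35.1% on ND, 48.9% in HFD replicate 1 and 25.7% in HFD replicate 2. For the Gly start the shares were 0.283% and 0.276% on ND and 0.633% and 0.255% on HFD. For the Val start they were 2.21% and 1.56% on ND and 3.40% and 2.04% on HFD. HFD replicate 1 was the highest of the 4 libraries for these 4 tRNAs, and HFD replicate 2 was the lowest for each but tRNA-Val. For 28S rRNA HFD replicate 1 was not the highest: the shares were 0.253% and 0.449% on ND and 0.311% and 0.254% on HFD. For 5.8S rRNA HFD replicate 1 was again the highest, with shares of 48.2% and 40.1% on ND and 56.4% and 51.2% on HFD, without overlap.

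A family of reads that could not be assigned to an RNA had 2410 and 910 CPM on ND, 0 reads in HFD replicate 1 and 2287 CPM in HFD replicate 2. Both Dnmt2+/+ HFD libraries, which shared the error pattern of HFD replicate 1, also had 0 reads. The count of 0 allows up to 0.291 CPM in HFD replicate 1.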
